A study of Homo sapiens with 9 samples.

Results

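A set of 9 genes for cell-surface receptors of neuroblastoma cells, ALK, RET, NTRK2, NTRK3, NGFR, GFRA2, GFRA3, IGF1R and INSR, was followed in SH-Sy5y cells that received a mimic of the microRNA miR-1229-3p. The receptors were chosen by name, and 9 of the 9 had a row among the 14943 genes of the count table, so 0 of these 9 were absent after the authors' filter on low counts. They were chosen with earlier results of these data known, so this does not show whether the filter removed other such receptors. SH-Sy5y is a human neuroblastoma line, and the values come from this 1 line. The study was made to find messenger RNAs that the microRNA acts on. Ctrl. cells were transfected with 40 pmol of a negative control oligonucleotide and no mimic, 10 nM cells with 20 pmol of mimic and 20 pmol of that oligonucleotide, and 20 nM cells with 40 pmol of mimic and 0 pmol of it. The control oligonucleotide thus fell as the mimic rose, and their parts cannot be told apart in any comparison of these groups or in the trend with concentration. Polyadenylated RNA was taken after 48 h, and each of the 3 groups has 3 libraries. Where it could, the study pooled the RNA of a pair of wells, and no label ties a library to a separate culture, so p-values measure the spread between these libraries, which may be partly technical.

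The receptors belong to 4 small systems. RET is the signalling kinase for the GDNF family of ligands, which reach it through co-receptors anchored in the membrane by a lipid, among them GFRA2 (which prefers neurturin) and GFRA3 (which prefers artemin). NTRK2 and NTRK3 are the kinases for brain-derived neurotrophic factor and neurotrophin-3, and NGFR is a receptor without kinase activity that binds all neurotrophins. ALK is a kinase whose activating mutations occur in neuroblastoma. IGF1R and INSR are closely related kinases for insulin-like growth factors and insulin and can join into hybrid receptors. A microRNA lowers messenger RNAs that pair with its seed (bases 2 to 8 from the 5′ end), mostly through sites in the 3′ untranslated region (UTR).

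The mature microRNA, from RefSeq, is transcribed from the minus strand at chr5:179798278-179798300 (GRCh38.p14) and is shown because every match described here is read from its seed, in capitals.
hsa-miR-1229-3p: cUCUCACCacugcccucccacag

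The 3′ UTR of the main (canonical) transcript of each receptor in GENCODE 44 was searched on the transcribed strand for 4 words complementary to the seed, each stretch counting as its longest match. GGTGAGAA is the 8-mer, GGTGAGA pairs with bases 2 to 8, GTGAGAA with bases 2 to 7 followed by an A, and GTGAGA is the 6-mer. IGF1R held the only 8-mer among the 9 receptors. Its UTR of 7088 bases held 3 matches, an 8-mer, a 7-mer and a 6-mer. INSR, with a UTR of 4791 bases, held 4, of which 2 were 7-mers. NTRK3 has a UTR of 17184 bases and held 11 matches, with 5 7-mers and 6 6-mers. NTRK2 and GFRA2 held 1 6-mer each, and ALK, RET, NGFR and GFRA3 held 0, in UTRs of 450, 2082, 1999 and 588 bases. Thus 3 of the 9 receptors held a 7-mer or the 8-mer, beside 20.7% of the 13989 genes with such a UTR. The 8-mer was the best match of 4.28% of these genes. With the longest annotated UTR of each gene in place of the canonical one, the same 3 receptors held one, beside 25.1% of genes. All matches of IGF1R and the 7-mers of INSR, without its 6-mers, are shown because IGF1R was the receptor that changed. They are given on GRCh38.p14, 5′ to 3′ on the transcribed strand, which is plus for IGF1R and minus for INSR, with the match in capitals.
IGF1R 8-mer, chr15:98962124-98962153: tgagatcgatgGGTGAGAAggctaggatgc
IGF1R 7-mer, chr15:98964068-98964097: agtgaggttgaGGTGAGAggtttgccagag
IGF1R 6-mer, chr15:98959992-98960021: gggtgtgtgtgtGTGAGAgtgatgggacag
INSR 7-mer of bases 2 to 8, chr19:7114302-7114331: taccttcctttGGTGAGAgatggctgccgg
INSR 7-mer of bases 2 to 7 and A, chr19:7113402-7113431: cattggaagcaGTGAGAAagagaagcactg

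A match is a description of these letters and not a site shown to be bound. The map of seed matches places them along each UTR.

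**Figure D1:**
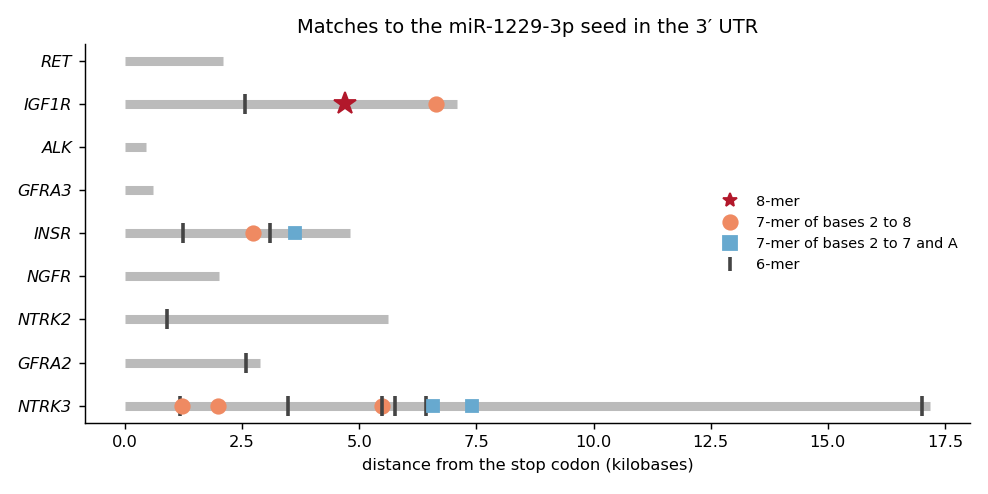
Matches to the seed of miR-1229-3p in the canonical 3′ UTR of the 9 receptors. The grey bars give the length of each UTR, with the distance from the stop codon in kilobases on the x axis, and the symbols the kind of match. IGF1R carries the only 8-mer, NTRK3 has the longest UTR with 11 matches, and ALK, RET, NGFR and GFRA3 have 0.

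The 9 libraries held 17.4 to 28.2 M estimated counts each. The third 20 nM library stood apart, with a score of 47.4 on principal component 1 (30.4% of the variance), where the remaining 8 scored -17.1 to 7.72. It had the highest value of the 9 libraries for ALK, NGFR, GFRA3 and IGF1R and the lowest for NTRK2. The fits carried a surrogate variable, an estimated term for unexplained variation between libraries, which was 0.907 in this library and between -0.242 and 0.0602 in the others. Levels are CPM (counts in each M of library counts) scaled by TMM and not corrected for it, whereas fold changes come from the corrected model, so both can differ. Same-numbered Ctrl. and mimic libraries deviated together, and a fit with the replicate number as a block is quoted where it changed the call of a receptor or of another gene named here. Of 7 noradrenergic neuroblastoma markers, 7 had a row, and their summed level was 5094 to 5288 CPM in Ctrl., 5397 to 5646 CPM at 10 nM and 5270 to 6088 CPM at 20 nM. At 20 nM, 2 of the 7 (ISL1 and TH) were lower past the threshold. Over all genes 13.9% passed at 20 nM (1165 higher, 909 lower), and 2039 genes passed with the replicate block. These background values stand beside every marker count in this paragraph. TH, the first enzyme of catecholamine synthesis, was near the floor, at 0.565 to 0.633 CPM in Ctrl. and at 0.122 to 0.172 CPM at 20 nM. Without 1 library at a time the TH call held in 3 of 9 fits (highest edgeR adjusted p 0.109) and that of ISL1 in 8 of 9 (0.0512), both highest without the second 20 nM library. With the block 2 of the 7 were lower and 1 was higher, DBH, the enzyme that makes noradrenaline, named after its value was seen (0.25 on the log2 scale, edgeR adjusted p = 0.0196, and 0.428 without the block). The 6 of 8 mesenchymal markers with a row summed to 1112 to 1186 CPM in Ctrl., 1081 to 1180 CPM at 10 nM and 887 to 1127 CPM at 20 nM. Of these 6, CD44 alone passed at 20 nM and was higher, at low levels of 1.34 to 1.38 CPM in Ctrl. and 2.92 to 3.40 CPM at 20 nM. Of the 5 fibroblast markers, with sums of 208 to 275, 204 to 281 and 181 to 258 CPM in the same order, LUM alone passed, although its libraries overlapped, at 26.5 to 36.7 CPM in Ctrl. and 14.5 to 42.7 CPM at 20 nM (0.56 on the log2 scale, edgeR adjusted p = 0.00969). With the block 0 of the 5 passed, and LUM was at -0.0072 (edgeR adjusted p = 0.985). It also missed the threshold without the second 20 nM library (0.0808). Of 5 Schwann cell markers 3 had a row and summed to 5.52 to 7.41 CPM over the 9 libraries, and of 4 leukocyte markers 1 (CD68) had one, at 2.93 to 4.13 CPM. The part of these markers in the receptor results was not tested, and fewer cells of a type and less RNA per cell cannot be told apart in such libraries.

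In Ctrl. cells the 9 receptors spanned an 8220-fold range of level per transcript length. The lower end of this range is NTRK3, which rests on 15, 10 and 6 counts in the 3 Ctrl. libraries and on a canonical length of 20018 bases. Levels between genes were compared as CPM per kilobase of the canonical transcript. RET led with 177 ± 9.90 CPM per kilobase (SD, n = 3 here and below), above 97.9% of the 14873 genes with a length, whose median was 8.20. IGF1R followed with 21.5 ± 0.652, ALK with 14.9 ± 0.0679 and GFRA3 with 13.2 ± 1.89 CPM per kilobase. INSR lay lower, at 2.73 ± 0.176 CPM per kilobase, above 27.4% of genes.
The 3 neurotrophin receptors and GFRA2 were near the floor. NGFR had 0.530 ± 0.0883, NTRK2 0.471 ± 0.102 and GFRA2 0.351 ± 0.106 CPM per kilobase, and NTRK3 0.0215 ± 0.00900. In this order NGFR and NTRK2, and NTRK2 and GFRA2, overlapped between libraries, so these neighbours did not differ beyond their spread. The lowest ALK library and the highest GFRA3 library both lay at 14.9 CPM per kilobase. With the union of all annotated exons as the length, ALK and GFRA3, and NTRK2 and GFRA2, exchanged places, and the other 5 receptors kept theirs. The union for NTRK2 was 33162 bases against 8666 for its canonical transcript.

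**Figure D2:**
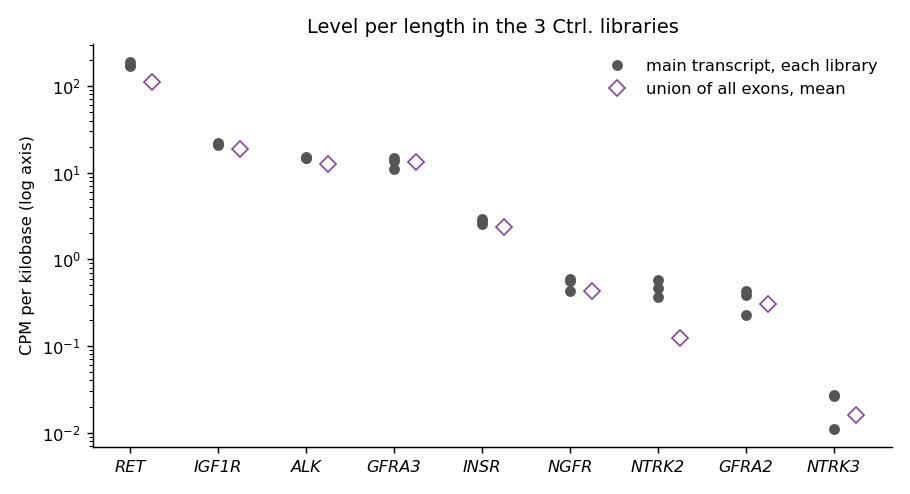
Level of the 9 receptors in the 3 Ctrl. libraries, in CPM per kilobase on a log axis. Dots are single libraries divided by the canonical transcript length, and diamonds are the mean divided by the union of all exons. RET lies at 169 to 188 and NTRK3 at 0.0112 to 0.0270 CPM per kilobase.

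At 10 nM, 0 of the 9 receptors passed an adjusted p of 0.05 in edgeR's quasi-likelihood test, 0 had an unadjusted p under 0.05, and 0 of the 5 to which DESeq2 gave an adjusted p passed there (NTRK2, NTRK3, NGFR and GFRA2 got none). Over all genes 97 passed (0.649%), 33 higher and 64 lower. In 0 of the 9 receptors did the 3 libraries at 10 nM lie apart from the 3 Ctrl. libraries in CPM, beside 20.0% of all genes. The median of the 9 log2 fold changes was 0.064, and that of all genes 0.00047. The estimates were -0.089 (SE 0.048) for ALK, 0.051 (SE 0.056) for RET and 0.064 (SE 0.045) for IGF1R, and 0.22 for both GFRA3 and NTRK3, with SEs of 0.12 and 0.45. The largest were 0.25 (SE 0.33, edgeR adjusted p = 0.774) for GFRA2 and 0.24 (SE 0.26) for NGFR.

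At 20 nM, IGF1R rose and was the 1 receptor of 9 past the threshold, while 2074 of all genes (13.9%) passed, 1165 higher and 909 lower. The share among the receptors, 1 of 9, was thus near that of all genes. It was also the 1 receptor whose 20 nM libraries lay apart from Ctrl. in CPM, beside 28.9% of genes. The median log2 fold change of the 9 was 0.054, and that of all genes -0.00016. Between 20 nM and 10 nM, IGF1R alone passed among the 9, beside 2.79% of genes (417), and in the trend with concentration it alone passed again, beside 17.5% (2620). These comparisons share libraries, so their calls are not independent of each other.

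**Figure D3:**
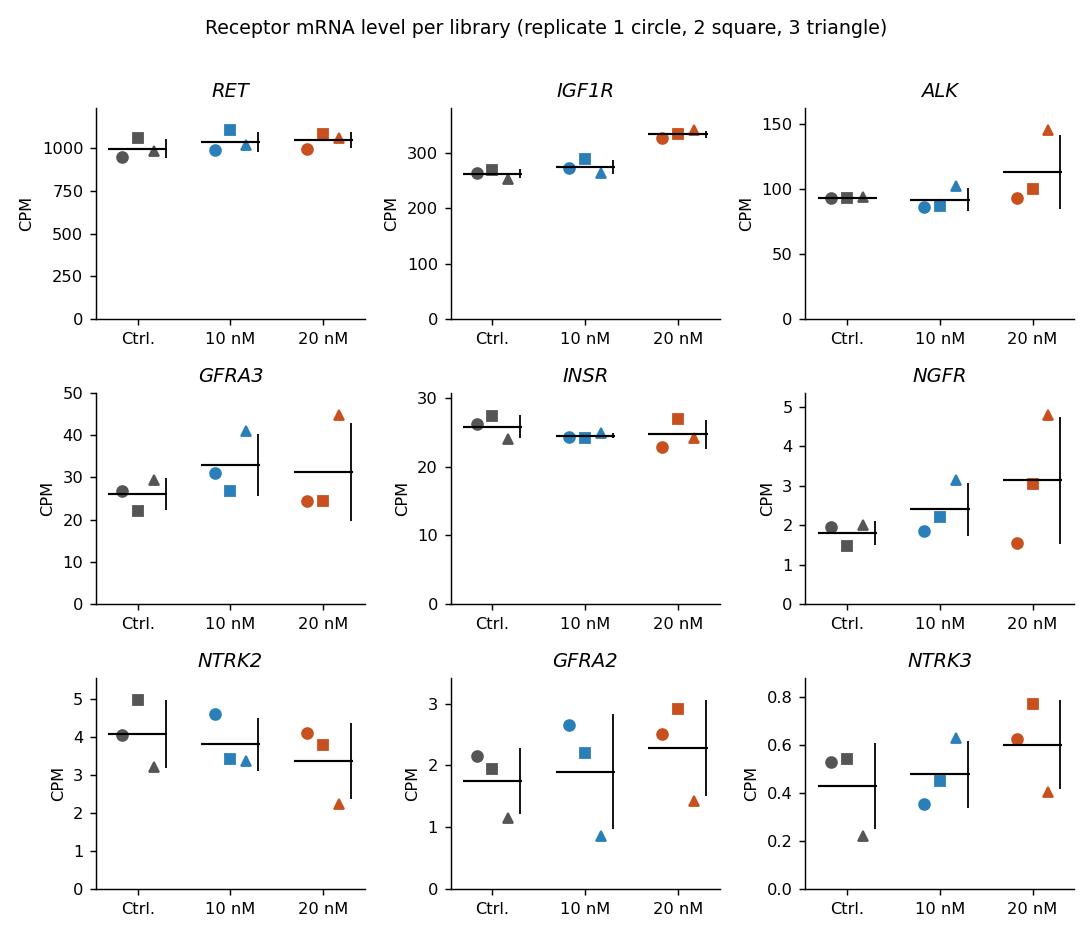
CPM of the 9 receptors in every library, each panel with its own axis from 0. Circles, squares and triangles are replicates 1, 2 and 3, horizontal lines are group means and vertical lines ± 1 SD (n = 3). The 20 nM libraries of IGF1R, 328 to 341 CPM, lie above its other 6, and the third 20 nM library is the highest of 9 for ALK, NGFR and GFRA3.

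IGF1R (ENSG00000140443, chr15:98648539-98964530, plus strand, GRCh38.p14, protein coding with 21 exons in the canonical transcript) is the receptor for insulin-like growth factors. It was at 264, 270 and 254 CPM in Ctrl., at 274, 289 and 264 CPM at 10 nM and at 328, 334 and 341 CPM at 20 nM. The 10 nM libraries overlapped with Ctrl., and each 20 nM library was above every other. The group means were 263 ± 7.98, 275 ± 12.8 and 334 ± 6.74 CPM (SD, n = 3), and 6 of 6 mimic libraries were above the Ctrl. library of the same number. Each Ctrl. library serves at both concentrations in this count, so the 6 comparisons are not independent. In the model IGF1R was 1.26-fold higher at 20 nM than in Ctrl. (log2 fold change 0.33, SE 0.051, edgeR adjusted p = 0.00105). The size of this change exceeded that of 83.0% of all genes. At 10 nM the log2 fold change was 0.064 (SE 0.045, edgeR adjusted p = 0.556). From 10 nM to 20 nM it was 0.27 (SE 0.048, edgeR adjusted p = 0.00882), and the trend per 20 nM was 0.34 (SE 0.057, edgeR adjusted p = 0.00118).
The difference from Ctrl. stayed past the threshold in 18 of 18 alternative fits (edgeR or DESeq2 adjusted p from 1.48e-07 to 0.0118), and without the third 20 nM library it was 0.33 (edgeR adjusted p = 0.00022). The step from 10 nM to 20 nM held in 13 of 18. It was lost with the replicate block (edgeR adjusted p = 0.051), without surrogate variables (0.0919), and without the third 10 nM library (0.0561), the first 20 nM library (0.0603) or the second 20 nM library (0.0622).
The higher level of IGF1R stands beside the 8-mer in its UTR shown above. Among the 599 genes whose best match was the 8-mer, 39 (6.51%) were called higher at 20 nM and 103 (17.2%) lower. Among the 9043 genes without a match, 707 (7.82%) were called higher and 410 (4.53%) lower. IGF1R was therefore among the smaller number of 8-mer genes called in this direction.

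INSR (ENSG00000171105, chr19:7112255-7294414, minus strand), the insulin receptor, is the nearest relative of IGF1R among the 9. It was at 26.2, 27.3 and 24.0 CPM in Ctrl., 24.3, 24.2 and 24.9 CPM at 10 nM and 22.9, 27.0 and 24.2 CPM at 20 nM. The groups overlapped throughout. The log2 fold change was -0.072 (SE 0.078, edgeR adjusted p = 0.719) at 10 nM and -0.054 (SE 0.088, edgeR adjusted p = 0.75) at 20 nM.
The log2 ratio of IGF1R to INSR within a library, which does not depend on scaling, was 3.33, 3.30 and 3.40 in Ctrl., 3.49, 3.57 and 3.40 at 10 nM and 3.83, 3.63 and 3.81 at 20 nM. In 5 of the 6 mimic libraries it lay above all 3 Ctrl. libraries. Mimic libraries exceeded Ctrl. by 0.28 on average (two-sided exact permutation test, all 84 splits enumerated, p = 0.0476, 0.19 after Benjamini-Hochberg adjustment over 4 ratios, smallest possible p 0.0119), which does not pass after adjustment. With labels permuted only within replicate numbers, a test added after the data were seen, p was 0.148 (exact permutation over 27 arrangements, 0.444 after adjustment, smallest possible p 0.037), and 5 of 6 mimic libraries were above the Ctrl. library of their number.

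RET (ENSG00000165731, chr10:43077064-43130351, plus strand) was the most abundant of the 9. It was at 947, 1056 and 983 CPM in Ctrl., 985, 1102 and 1018 CPM at 10 nM and 993, 1084 and 1056 CPM at 20 nM. Replicate 1 was the lowest and replicate 2 the highest in each group, and the groups overlapped. In 6 of 6 same-numbered comparisons, which use each Ctrl. library at both concentrations and so are not independent, the mimic library was above Ctrl. The means were 1035 ± 60.6 and 1045 ± 46.6 CPM against 995 ± 55.6 CPM (SD, n = 3). The model gave 0.051 on the log2 scale (SE 0.056, edgeR adjusted p = 0.722) at 10 nM and 0.049 (SE 0.064, edgeR adjusted p = 0.676) at 20 nM. With the replicate block the 20 nM value was 0.071 (edgeR adjusted p = 0.303).

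Its co-receptor GFRA3 (ENSG00000146013, chr5:138252380-138274621, minus strand) was at 26.8, 22.1 and 29.5 CPM in Ctrl., 31.0, 26.8 and 41.0 CPM at 10 nM and 24.5, 24.5 and 44.7 CPM at 20 nM. Replicate 3 was the highest in each group. At 10 nM 3 of 3 libraries were above the Ctrl. library of the same number, and the log2 difference was 0.22 (SE 0.12, edgeR adjusted p = 0.435). At 20 nM the model gave -0.17 (SE 0.14, edgeR adjusted p = 0.465), although the mean CPM was higher than in Ctrl. Without surrogate variables the value was 0.25. From 10 nM to 20 nM it was -0.39 (SE 0.13, unadjusted p = 0.0103, edgeR adjusted p = 0.151). That step passed without the third 20 nM library (edgeR adjusted p = 0.0425), without the second 10 nM library (0.0473) and with another number of surrogate variables (0.032).

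GFRA2 (ENSG00000168546, chr8:21690398-21812357, minus strand) was at 2.16, 1.95 and 1.15 CPM in Ctrl., 2.66, 2.20 and 0.857 CPM at 10 nM and 2.51, 2.92 and 1.42 CPM at 20 nM. Replicate 3 was the lowest in each group. These levels rest on 15 to 68 counts per library. The estimate at 20 nM was the largest among the 9 receptors, at 0.80 on the log2 scale (SE 0.36, unadjusted p = 0.0456, edgeR adjusted p = 0.169), and it missed the threshold in 18 of 18 alternatives. The trend was 0.66 (SE 0.33, edgeR adjusted p = 0.193), and passed without the third 20 nM library (edgeR adjusted p = 0.048).
The log2 ratio of GFRA2 to GFRA3 differed by -0.075 between mimic and Ctrl. libraries (exact permutation p = 0.893, adjusted 0.893), and that of RET to ALK by -0.045 (exact permutation p = 0.857, adjusted 0.893).

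ALK (ENSG00000171094, chr2:29192774-29921586, minus strand) was at 93.1, 92.9 and 93.7 CPM in Ctrl., 86.5, 87.2 and 102 CPM at 10 nM and 92.9, 99.8 and 145 CPM at 20 nM. The Ctrl. libraries lay within 1 CPM of each other, and the third 20 nM library lay 55.5% above their mean. The mean at 20 nM was 113 ± 28.3 CPM (SD, n = 3), and 96.3 CPM without that library. The model, with its surrogate variable, gave -0.0017 (SE 0.054, edgeR adjusted p = 0.989) at 20 nM, and 0.27 without surrogate variables. The trend was 0.11 (SE 0.048, unadjusted p = 0.0425, edgeR adjusted p = 0.145), which passed without the first 20 nM library (edgeR adjusted p = 0.0174). Over 135 bases (2.16%) the canonical transcript of ALK lies opposite exons of CLIP4, and whether the counting used strand is not given in the sources used here.

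The receptors for neurotrophins were scarce in these cells. NTRK2 (ENSG00000148053, chr9:84668375-85095751, plus strand), which neuroblastoma can express with its ligand, was at 4.06, 4.97 and 3.20 CPM in Ctrl., 4.61, 3.43 and 3.37 CPM at 10 nM and 4.10, 3.78 and 2.23 CPM at 20 nM. Replicate 3 was the lowest in each group, and the third 20 nM library the lowest of the 9. The model gave 0.014 (SE 0.18, edgeR adjusted p = 0.982) at 10 nM and 0.054 (SE 0.20, edgeR adjusted p = 0.904) at 20 nM, whose sign depended on the fit.
NTRK3 (ENSG00000140538, chr15:87859751-88256791, minus strand) was at 0.530, 0.541 and 0.223 CPM in Ctrl., 0.355, 0.450 and 0.629 CPM at 10 nM and 0.628, 0.774 and 0.405 CPM at 20 nM. These are 6 to 18 counts per library, and the groups overlapped. The log2 fold change at 20 nM was 0.74 with an SE of 0.47 (edgeR adjusted p = 0.337). The log2 ratio of NTRK2 to NTRK3 was lower by 0.50 in mimic than in Ctrl. libraries, with means of 2.56 and 3.05, and 5 of 6 mimic libraries lay below all Ctrl. libraries (exact permutation p = 0.155, adjusted 0.31). At so few counts the prior count draws this ratio towards 0.
NGFR (ENSG00000064300, chr17:49495293-49515008, plus strand) was at 1.94, 1.46 and 2.01 CPM in Ctrl., 1.86, 2.20 and 3.14 CPM at 10 nM and 1.55, 3.05 and 4.78 CPM at 20 nM, or 27 to 118 counts per library. Replicate 3 was the highest in each group. The 20 nM libraries spread 51.7% of their mean (coefficient of variation), and the lowest of them lay within the Ctrl. range. The model gave 0.24 (SE 0.26, edgeR adjusted p = 0.719) at 10 nM and 0.17 (SE 0.29, edgeR adjusted p = 0.77) at 20 nM. The trend, 0.31 (SE 0.27, edgeR adjusted p = 0.483), passed only without the first 20 nM library (edgeR adjusted p = 0.0115). An annotated antisense gene, NGFR-AS1, lies opposite 5.93% of the canonical transcript.

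**Figure D4:**
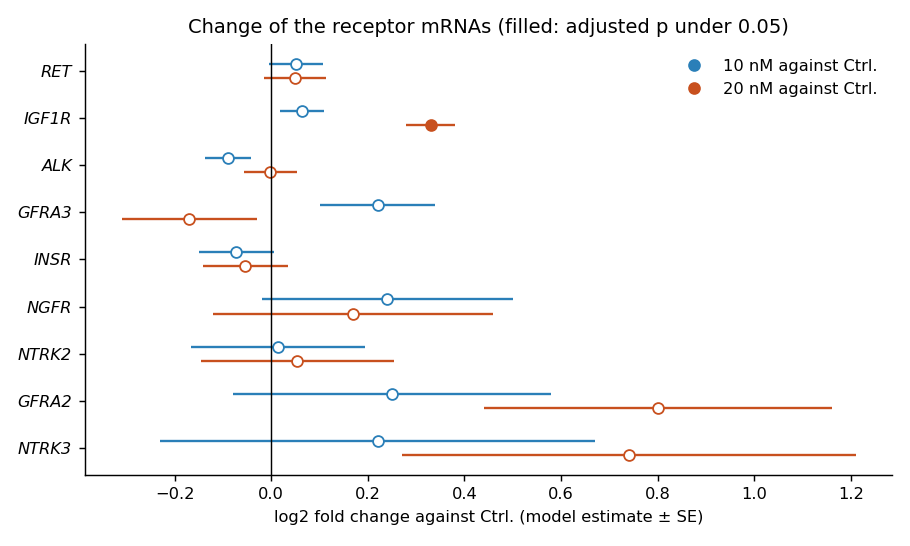
Log2 fold change of the 9 receptors at 10 nM and 20 nM against Ctrl., as model estimates with bars of ± 1 SE. Filled symbols passed an adjusted p of 0.05. IGF1R at 20 nM, 0.33, is the only filled symbol, and the widest bars belong to NTRK3 and GFRA2, with SEs of 0.47 and 0.36 at 20 nM.

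Of 14 ligands of these receptors, 8 had a row. The 6 without one, NTF3, NTF4, GDNF, ALKAL1, IGF1 and INS, were not analysed here. At 10 nM 0 of the 8 passed, with 1 at an unadjusted p under 0.05 in edgeR. At 20 nM 2 of 8 fell and 0 rose, with a median log2 fold change of -0.12, beside the 13.9% of all genes that passed in either direction (1165 higher, 909 lower). IGF2, which binds IGF1R, was at 334 to 457 CPM in Ctrl., 339 to 449 CPM at 10 nM and 240 to 308 CPM at 20 nM, where it was below every Ctrl. library (log2 fold change -0.69, SE 0.13, edgeR adjusted p = 0.00343). This call held in 9 of the 9 fits that each left out 1 library. IGF2 thus fell where IGF1R rose. MDK, which encodes the heparin-binding growth factor midkine, was at 604 to 621 CPM in Ctrl. and 512 to 568 CPM at 20 nM (log2 fold change -0.19, SE 0.049, edgeR adjusted p = 0.0206). MDK missed the threshold with the replicate block (edgeR adjusted p = 0.062), as it did without the second Ctrl. or the first 20 nM library (highest 0.211).
The others missed the threshold at both concentrations. BDNF, the ligand of NTRK2, was near the floor, at 0.447 to 0.541 CPM in Ctrl., 0.914 to 1.15 CPM at 10 nM and 0.648 to 0.903 CPM at 20 nM, with log2 fold changes of 1.10 (edgeR adjusted p = 0.129) and 0.83 (0.13), although neither group overlapped with Ctrl. The GDNF family ligands NRTN, ARTN and PSPN had mean levels of 15.1, 1.33 and 6.46 CPM in Ctrl. and log2 fold changes of 0.13, -0.29 and 0.030 at 20 nM. ALKAL2, the ligand of ALK, was at 0.335 to 0.495 CPM in Ctrl., and PTN, which encodes pleiotrophin, at 126 to 149 CPM.

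Of 7 IGF-binding proteins, which hold insulin-like growth factors outside the cell, 5 had a row. At 20 nM 2 of the 5 rose and 0 fell, beside 13.9% of all genes past the threshold and 7.80% called higher, with a median log2 fold change of 0.20. IGFBP5 was at 42.8 to 70.2 CPM in Ctrl. and 58.4 to 93.6 CPM at 20 nM, which overlap (log2 fold change 0.70, SE 0.16, edgeR adjusted p = 0.011). Without the first 20 nM library it missed the threshold (edgeR adjusted p = 0.0671). IGFBP3 was at 34.6 to 37.4 CPM in Ctrl., 26.3 to 29.0 CPM at 10 nM and 34.5 to 44.2 CPM at 20 nM. It fell at 10 nM (log2 fold change -0.34, SE 0.064, edgeR adjusted p = 0.0314) and rose at 20 nM (0.33, SE 0.069, edgeR adjusted p = 0.00703). The step between both concentrations was 0.67 (SE 0.067, edgeR adjusted p = 0.00016). With the replicate block the step passed (edgeR adjusted p = 0.0217), whereas the differences from Ctrl. did not (0.212 at 10 nM, 0.129 at 20 nM). Leaving out 1 library at a time kept the IGFBP3 call at 10 nM in 3 of 9 fits (highest edgeR adjusted p 0.0979, without the third 10 nM library) and at 20 nM in 8 of 9 (0.0624 without the second 20 nM library).

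Of 13 related receptors and co-receptors, 9 had a row. At 10 nM 0 passed, with 2 at an unadjusted p under 0.05 in edgeR, and at 20 nM 2 rose and 2 fell, beside 13.9% of all genes called, with a median log2 fold change of 0.071. LTK, the closest relative of ALK, was at 19.7 to 20.9 CPM in Ctrl., 23.2 to 26.4 CPM at 10 nM and 27.2 to 30.4 CPM at 20 nM, with no overlap between the groups. It rose at 20 nM by 0.44 on the log2 scale (SE 0.079, edgeR adjusted p = 0.00314), in 9 of the 9 fits that left out 1 library. SORT1, which encodes the NGFR partner sortilin, was at 94.4 to 105 CPM in Ctrl. and 108 to 118 CPM at 20 nM (log2 fold change 0.24, SE 0.056, edgeR adjusted p = 0.015). SORT1 missed the threshold without the first or the second 20 nM library (highest 0.115).
INSRR, an orphan relative of INSR, was at 101 to 123 CPM in Ctrl. and 90.9 to 102 CPM at 20 nM (log2 fold change -0.29, SE 0.087, edgeR adjusted p = 0.0446). It kept this call in 5 of the 9 fits (highest 0.217, without the first 20 nM library). IGF2R, which clears IGF2 and was named after its value was seen, had -0.15 (SE 0.044, edgeR adjusted p = 0.0452) and kept its call in 2 of 9 (highest 0.404, without the first 20 nM library). Under the block 2 of the 9 passed, 2 higher and 0 lower. SORT1 (edgeR adjusted p = 0.0635), INSRR (0.0844) and IGF2R (0.763) missed it there, whereas LTK (0.00694) passed.

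Of 36 adaptors and substrates that carry the signal from these receptors, 33 had a row. At 20 nM 3 rose and 9 fell, beside 13.9% of all genes called (1165 higher, 909 lower), with a median log2 fold change of -0.0020. With the replicate block 1 was higher and 5 were lower, while 2039 of all genes were called. KIDINS220, a scaffold that binds neurotrophin receptors, was at 347 to 360 CPM in Ctrl., 307 to 319 CPM at 10 nM and 264 to 273 CPM at 20 nM, with no overlap between groups (log2 fold change -0.42 at 20 nM, SE 0.044, edgeR adjusted p = 8e-05). CBL, a ubiquitin ligase that marks receptor kinases for degradation, was at 92.1 to 95.8 CPM at 10 nM and 84.9 to 96.4 CPM at 20 nM, below all 3 Ctrl. libraries with their mean of 115 ± 6.82 CPM (SD, n = 3) (-0.41 at 20 nM, SE 0.058, edgeR adjusted p = 0.000619). DOK4, a substrate of RET, was at 794 to 813 CPM in Ctrl., 767 to 825 CPM at 10 nM and 617 to 683 CPM at 20 nM (-0.38, SE 0.046, edgeR adjusted p = 0.000259). PIK3R2, a regulatory subunit of phosphoinositide 3-kinase, rose from 297 to 328 CPM in Ctrl. to 383 to 492 CPM at 20 nM (0.36, SE 0.058, edgeR adjusted p = 0.00134). These 4 calls at 20 nM held in 9 of 9 fits that left out 1 library and with the replicate block.
At 10 nM, where 0.649% of all genes were called, 3 of the 33 passed, KIDINS220 (log2 fold change -0.20, edgeR adjusted p = 0.0401), CBL (-0.30, 0.0176) and PIK3R2 (0.25, 0.0472), in the same directions. Under the block 0 of them did (edgeR adjusted p of 0.286, 0.226 and 0.37). Leaving out 1 library kept these calls in 1, 5 and 3 of 9 fits, with highest values of 0.131 (without the third 10 nM library), 0.0756 and 0.15 (both without the first Ctrl. library).

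Of 18 genes that commonly respond to the ERK pathway downstream of receptor kinases, 18 had a row. At 10 nM 0 passed, with 1 at an unadjusted p under 0.05 in edgeR. At 20 nM 3 of the 18 were called, a share near the 13.9% of all genes called in either direction (1165 higher, 909 lower). Of the 18, 0 rose and these 3 fell, with a median log2 fold change of -0.061 over the 18. They were CCND1, which encodes cyclin D1, with -0.26 (SE 0.064, edgeR adjusted p = 0.0171), and the feedback inhibitors SPRY4 with -0.19 (SE 0.051, edgeR adjusted p = 0.024) and DUSP6 with -0.29 (SE 0.083, edgeR adjusted p = 0.0388). In CPM the 20 nM libraries of these 3 genes overlapped with Ctrl. Under the block they missed the threshold (edgeR adjusted p of 0.129, 0.431 and 0.229). Then 1 gene was called higher, VGF, a secreted neuropeptide precursor named after its value was seen (log2 fold change 0.41, edgeR adjusted p = 0.00421), and 1 lower, SPRY1, named for the same reason (-0.23, edgeR adjusted p = 0.0444). In the main fit's trend with concentration 2 of the 18 were higher and 2 (CCND1 and SPRY4) lower, beside 17.5% of all genes called. VGF was higher there (0.35, SE 0.080, edgeR adjusted p = 0.00798), in 9 of 9 fits that left out 1 library. ETV5 was also higher (0.16, SE 0.048, edgeR adjusted p = 0.0394), but in 2 of 9 such fits and not with the block (0.507). Without 1 library the calls of CCND1, SPRY4 and DUSP6 at 20 nM held in 7, 6 and 6 of 9 fits, with highest edgeR adjusted p of 0.0746 (without the second 20 nM library), 0.25 and 0.21 (both without the first 20 nM library). Without the third 20 nM library, the calls at 20 nM were 0 higher and 2 lower among ligands, 3 and 0 among IGF-binding proteins, 3 and 1 among related receptors, 4 and 11 among adaptors and substrates and 1 and 3 among the ERK response genes. In that fit 2656 of the 14943 genes passed, 1462 of them higher, against 2074 in the main fit.

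**Figure D5:**
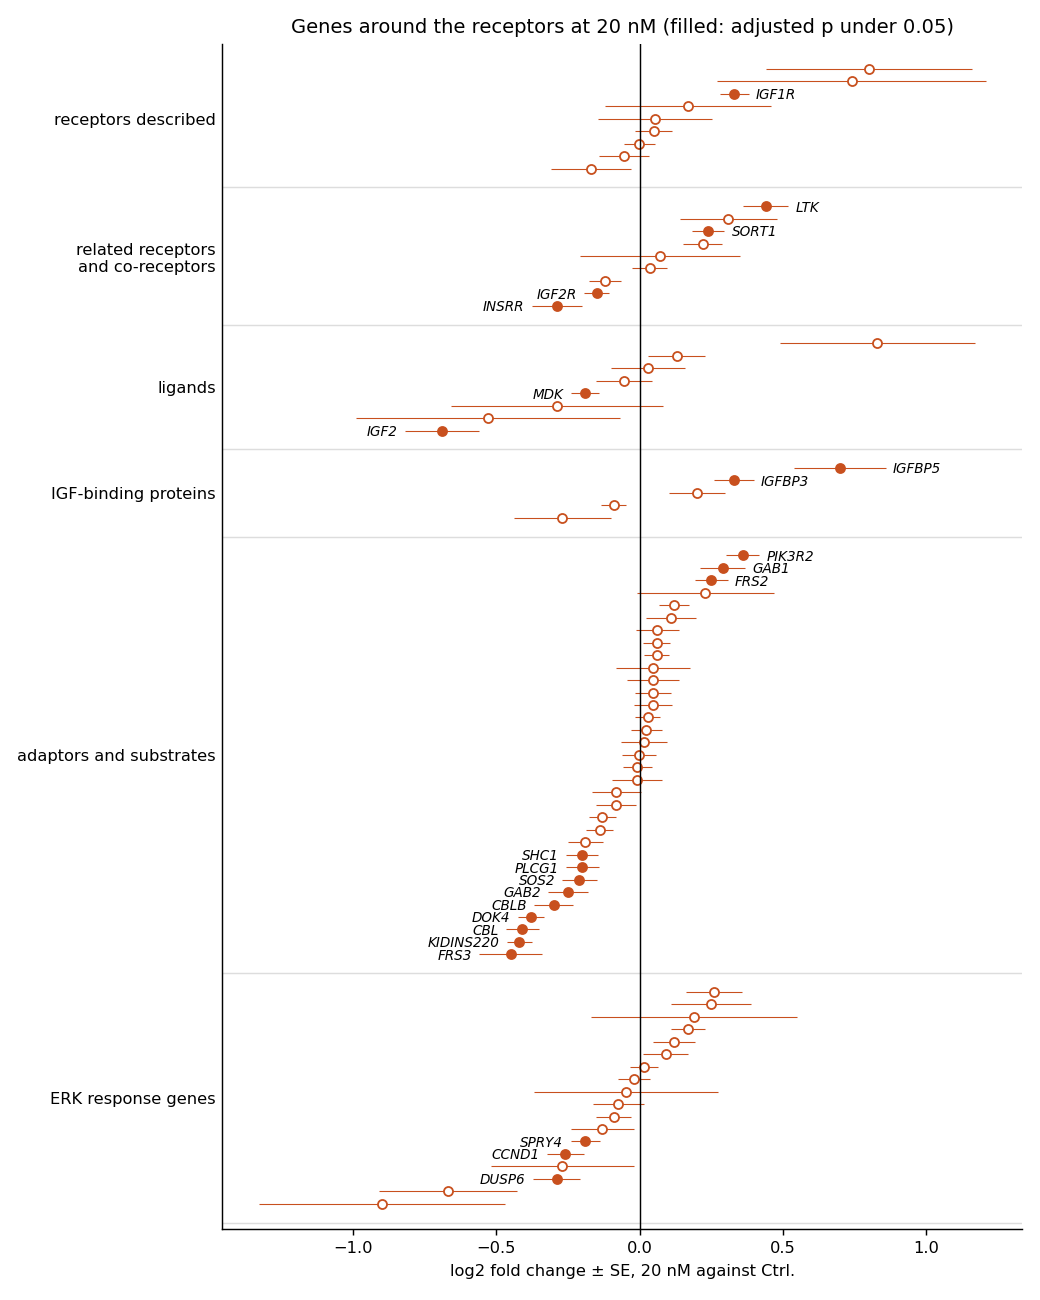
Log2 fold change at 20 nM against Ctrl. of the 9 receptors and of the lists of genes around them, 1 symbol a gene with a bar of ± 1 SE. Filled and named symbols passed an adjusted p of 0.05 in the model with surrogate variables. Among ligands 2 of 8 are filled and lower, among adaptors and substrates 3 are higher and 9 lower, and IGF1R is the only receptor of the 9 that is filled.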

How the data were processed

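The authors quantified reads with salmon on GRCh38.p13, added up the transcripts of each gene symbol and applied edgeR's filterByExpr to drop low genes. Their versions and the use of strand are not given in the sources used here. The deposited estimated counts (88.8% of values not whole) cover 14943 genes. Other deposited tables, with the authors' fold changes and p-values and with surrogate-corrected log2 values, were not used.

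Groups and replicate numbers came from the sample titles. Estimated counts were rounded and analysed in R 4.3.3 with edgeR 4.0.16 (TMM, quasi-likelihood test over 9 libraries, Benjamini-Hochberg over 14943 genes, threshold 0.05) and surrogate variables from sva 3.50.0 on log2 CPM with a prior count of 2. Their number, from num.sv (seed 1), was 1 in the group model and 2 in the concentration model, where 8 seeds gave 1 to 3. An SE is the log2 fold change over the square root of F. Ratios were tested by exact permutation over all libraries and, as an addition after the data were seen, within replicate numbers. Replicate libraries of a group differed by more than counting noise (chi-square per degree of freedom 4.69 to 46.5). Deviations from group means correlated between same-numbered libraries at 0.142 to 0.185 (Ctrl. and 10 nM) and 0.107 to 0.116 (Ctrl. and 20 nM), so the numbers were taken to pair these samples. Between 10 nM and 20 nM the range was 0.0288 to 0.176. Alternatives were DESeq2 1.42.0 (test and size factors), library totals, a likelihood-ratio test, no or another number of surrogate variables, the replicate block, a minimum of 1 CPM in 3 libraries, only the groups compared, and each library left out. The fits were also run on simulated independent counts, with changes planted only in well-counted genes. The simulation held no replicate pairing and no library that stands apart, so it does not cover those features.

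Lengths, positions and UTRs came from GENCODE 44 (GRCh38.p14), where 14105 genes were found by identifier and 768 by symbol, and 70 had no match. Members and lists were chosen with earlier results of these data known. A few genes of the lists are not reported here. All 9 receptors were described. From each list at most 4 genes per comparison with the smallest p past the threshold, the ligands with a row, and for each receptor the 2 genes of mean CPM at least 1 with the most similar pattern were named. Figures used matplotlib 3.10.9 in Python 3.11.15.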

Additional observations from a re-analysis of the deposited data

How the results depend on the processing

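At 20 nM and in the trend IGF1R kept its direction and its call in every alternative run. Its step from 10 nM to 20 nM did not. The number of receptors past the threshold in that step was 0 without surrogate variables, 0 with the replicate block and 2 with another number of surrogate variables, and 0 to 2 with 1 library left out. In the trend it was 1 to 3 with 1 library left out. Over all genes, 10 nM gave 5 calls without surrogate variables, 3 with the replicate block, 204 with DESeq2, 390 with the likelihood-ratio test, 268 with only the groups compared and 34 to 160 with 1 library left out. At 20 nM there were 954 without surrogate variables and 1074 to 2656 with 1 library left out. For 20 nM against 10 nM there were 67 without surrogate variables, 124 with the replicate block, 757 with the likelihood-ratio test and 111 to 462 with 1 library left out, and for the trend 1236 and 1668 to 3970. The replicate block changed no other call among the receptors. With the union of exons 5 of 9 receptors kept their place in the baseline order.

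The receptors that missed the threshold changed sign in places. Without surrogate variables the log2 fold change at 10 nM was -0.082 for NTRK2, at 20 nM 0.27 for ALK, -0.27 for NTRK2 and 0.25 for GFRA3, from 10 nM to 20 nM 0.013 for RET, -0.18 for NTRK2 and 0.39 for NGFR, and in the trend 0.25 for GFRA3. With the replicate block the same values were -0.083, 0.25, -0.28, 0.22, 0.014, -0.20, 0.34 and 0.21. With another number of surrogate variables NTRK2 had -0.027 at 10 nM and -0.015 at 20 nM, and ALK 0.028 at 20 nM. With only the groups compared NTRK2 had -0.072 at 10 nM and -0.10 at 20 nM, and ALK 0.094, and with the CPM minimum ALK had 0.0045. With 1 library left out, the range at 10 nM was -0.045 to 0.54 for GFRA2, -0.12 to 0.16 for NTRK2 and -0.10 to 0.46 for NTRK3. At 20 nM it was -0.034 to 0.093 for ALK, -0.17 to 0.060 for INSR, -0.25 to 0.67 for NGFR, -0.078 to 0.20 for NTRK2 and -0.015 to 0.12 for RET. From 10 nM to 20 nM it was -0.085 to 0.12 for INSR, -0.42 to 0.35 for NGFR, -0.024 to 0.12 for NTRK2 and -0.060 to 0.056 for RET, and in the trend -0.14 to 0.21 for GFRA3, -0.30 to 0.074 for NTRK2 and -0.0095 to 0.11 for RET. The ratio of GFRA2 to GFRA3 ran from -0.43 to 0.22 and that of RET to ALK from -0.10 to 0.056. The cause was not tested. The values of NTRK3 rest on 6 to 18 counts per library, those of GFRA2 on 15 to 68 and those of NGFR on 27 to 118. Permuting labels within replicate numbers, an alternative chosen after seeing the data, left all 4 ratios short of the threshold (exact permutation, lowest adjusted p 0.444). Where leaving out a library left 2 in its group, all groups shared 1 estimate of the spread.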

Other observations

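Across the 9 libraries, the genes whose log2 CPM was most like that of each receptor were looked up among 13682 genes of mean CPM at least 1 (13683 for NTRK3), as a description over libraries that share groups and the third library at 20 nM, which stands apart. For IGF1R they were MBTPS1 (Pearson r = 0.988), which encodes a protease of the Golgi, and PGGHG (0.984). For ALK they were HMGB1P5 (0.99), a pseudogene that can share reads with its parent gene, and HDGFL2 (0.986). For RET they were B2M (0.975), which encodes the light chain of class I histocompatibility molecules, and TYW1 (0.947). For GFRA3 they were UBN1 (0.98) and SYNGR3 (0.969), for GFRA2 KIRREL1 (0.977) and CLU (0.976), for NGFR PAXX (0.968) and PSMG3 (0.962), and for NTRK2 CDO1 (0.966) and AMER1 (0.956). INSR, with DCAF5 (0.909) and NUDT6 (0.894), and NTRK3, with PAPSS2 (0.874) and MMACHC (0.866), had lower values.

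Among the receptors themselves ALK, NGFR and GFRA3 varied together over the 9 libraries, with r of 0.833 between NGFR and ALK, 0.78 between GFRA3 and NGFR and 0.70 between GFRA3 and ALK, and NTRK2 varied the opposite way, with -0.812 against ALK, -0.843 against NGFR and -0.758 against GFRA3. The third 20 nM library is the highest of 9 for the first 3 and the lowest for NTRK2. Replicate 3 was also the highest within each of the 3 groups for ALK, NGFR and GFRA3, and the lowest for NTRK2. The value for IGF1R and INSR was -0.155 and that for IGF1R and GFRA3 0.0619.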
